A study of Sus scrofa with 5 samples.

Results

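miR-28 and miR-151 are small regulatory RNAs whose hairpins are derived from LINE-2, an old family of transposable elements. Their 4 mature arms, ssc-miR-28-5p, ssc-miR-28-3p, ssc-miR-151-5p and ssc-miR-151-3p (the pig prefix ssc- is mostly omitted from here on), were taken by name from the 411 names that the tables list. The samples were exosomes, small membrane vesicles shed by cells, isolated with a reagent kit from 5 body fluids of Rongchang pigs at postnatal day 180: bile, semen, urine, and blood as serum and as plasma. Each fluid gave 1 library of gel-selected small RNA. As labelled, the groups differ by fluid alone; no source used here says how many animals were sampled or whether the fluids share animals.

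A miRNA hairpin is cut into a 5p and a 3p strand, and usually one of them is kept in the silencing complex while the other is mostly degraded, so the share of each arm describes how a hairpin is used. In mammals miR-28 lies within LPP, a gene for an adhesion protein of the zyxin family, and miR-151 within PTK2, which encodes focal adhesion kinase. The RefSeq table of the pig assembly Sscrofa11.1 also places MIR28 inside LPP and MIR151 inside PTK2. The 5p arms of miR-28 and miR-151 are closely related in sequence, and no source used here states how reads that match several names were assigned, so the split of reads between those 2 arms is uncertain.

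The libraries held 26522 miRNA counts in urine and 473168 to 2284926 in the other fluids. Levels are given as CPM, which are counts scaled to a listed miRNA total of 1000000, with exact Clopper-Pearson 95% intervals; ratios between libraries carry exact conditional binomial 95% intervals. PCR reads without molecular identifiers are not independent molecules, so every interval covers counting error only, and with 1 library per fluid no difference below has a replicate check or a test. No count between 1 and 9 occurs in the tables, so a listed 0 stands for 0 to 9 reads. Of the markers checked, miR-122 and miR-192 with miR-885-5p, known from liver, took 19.2% of bile counts and 0.0132% to 1.69% elsewhere, the kidney epithelial pair miR-204 and miR-30a-5p took 22.5% in urine and 0.0423% to 1.95% elsewhere, and of 3 male germ cell and male tract names 2 were listed in semen and 0 in the other fluids, with miR-202-3p at 0 in semen as well. Nearly all of the urine share of the kidney pair was miR-30a-5p, at 22.1% of urine counts alone. The erythrocyte set (miR-451, miR-486, miR-144) took 10.21% in serum, 0.583% in plasma and 0.000525% to 0.468% in the rest.

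The 4 arms together took 0.958% of the listed miRNA counts in serum (0.930 to 0.986), 0.935% in urine (0.823 to 1.06), 0.847% in bile (0.833 to 0.861), 0.834% in semen (0.823 to 0.846) and 0.186% in plasma (0.178 to 0.194). By this share plasma stood far below the others. The interval of urine covers the values of serum, bile and semen, and those of semen and bile overlap. The place of plasma turned with the scaling: per 1000000 counts, with totals without miR-378, miR-320 and miR-423-5p the arms summed to 11534 in plasma and 9965 in serum, and with edgeR's TMM library sizes to 9359 and 4887. On the authors' RPM the sums ran from 23.0 in urine to 1765 in semen, with plasma at 297. RPM divides by a larger library total, of which listed miRNAs made up 0.246% in urine and 4.47% to 21.2% elsewhere. miR-151-3p had the most counts of the 4 arms in all 5 fluids. In plasma it did not differ from miR-28-3p beyond counting error (1.06 times, 0.974 to 1.16). It made up 82.1% of the summed counts in semen (81.6 to 82.7), 82.7% in urine (77.4 to 87.2), 76.3% in bile (75.5 to 77.0), 58.0% in serum (56.5 to 59.4) and 50.4% in plasma (48.3 to 52.6).

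ssc-miR-151-3p, the major strand of its hairpin, had 15654 counts in semen, 10805 in bile, 2628 in serum, 1081 in plasma and 205 in urine. Its level was 7729 CPM in urine (6711 to 8858), 6851 CPM in semen (6744 to 6959), 6458 CPM in bile (6337 to 6580), 5554 CPM in serum (5344 to 5770) and 937 CPM in plasma (882 to 994). Urine and semen do not differ beyond counting error (1.13 times, 0.978 to 1.29), and urine was 1.20 times bile (1.04 to 1.37). The plasma level lay far below the others on CPM. miR-151-3p was the 14th most abundant name of semen, the 15th of bile, the 19th of urine, the 31st of serum and the 35th of plasma.

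Outside plasma miR-151-3p had the smallest spread of the shared names on the CPM scale. Its highest CPM among serum, semen, urine and bile was 1.39 times its lowest, against a median of 10.9 times over the 70 names listed above 0 in all 4, and 0 of the other names had a smaller spread. Leaving out plasma was chosen after its values were seen; with plasma the spread was 8.25 times, and 7 of 67 names had a smaller one. The evenness depends on the scaling of the libraries. Without plasma, 0 names had a smaller spread than miR-151-3p with edgeR's TMM library sizes (2.21 times) and with totals without the most abundant miRNA (2.14 times). With DESeq2 size factors 5 names did (2.75 times), and 28 did on the authors' RPM (76.3 times), on which all miRNAs of urine are scarce. On CPM miR-28-3p was less even than miR-151-3p without plasma (3.42 times, 17 names with a smaller spread) but more even with plasma (4.32 times, 2 names). Without plasma miR-28-3p was more even with DESeq2 size factors (1.80 times, 1 name) and less even with TMM (2.67 times, 5 names).

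ssc-miR-28-3p, the major strand of miR-28, had 3113 counts in bile, 2541 in semen, 1802 in serum, 1018 in plasma and 43 in urine. Its level was 3808 CPM in serum (3635 to 3988), 1860 CPM in bile (1796 to 1927), 1621 CPM in urine (1174 to 2183), 1112 CPM in semen (1069 to 1156) and 882 CPM in plasma (829 to 938). On CPM serum was the highest fluid and plasma the lowest, and bile and urine do not differ beyond their intervals. This CPM order is another than that of miR-151-3p, which was lower in serum than in semen, urine and bile. The order of miR-28-3p turned with the scaling. Serum stayed highest and plasma lowest with totals without the most abundant miRNA (4649 and 1506). Plasma was highest with TMM (4446, urine lowest at 728) and with totals without miR-378, miR-320 and miR-423-5p (5479, semen lowest at 1115). Bile was highest and urine lowest with DESeq2 size factors (1287 and 717) and on the authors' RPM (295 and 3.98).

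ssc-miR-28-5p, the minor strand of miR-28, had 664 counts in semen, 108 in bile, 103 in serum and 44 in plasma and was listed at 0 in urine. Its level was 291 CPM in semen (269 to 314), 218 CPM in serum (178 to 264), 64.5 CPM in bile (52.9 to 77.9) and 38.1 CPM in plasma (27.7 to 51.2). Semen was the highest listed fluid. In urine 9 reads would stand for 339 CPM, above every listed level of this arm, so urine has no place in the order. ssc-miR-151-5p, the minor strand of miR-151, had 204 counts in semen and 143 in bile and was listed at 0 in serum, plasma and urine. It stood at 89.3 CPM in semen (77.4 to 102) and 85.5 CPM in bile (72.03 to 101), which do not differ beyond counting error (1.04 times, 0.839 to 1.30). Its 0 in serum stands for at most 19.0 CPM and that in plasma for at most 7.80 CPM, but the 0 in urine for up to 339 CPM, so absence from urine could not be seen at that depth.

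**Figure D1:**
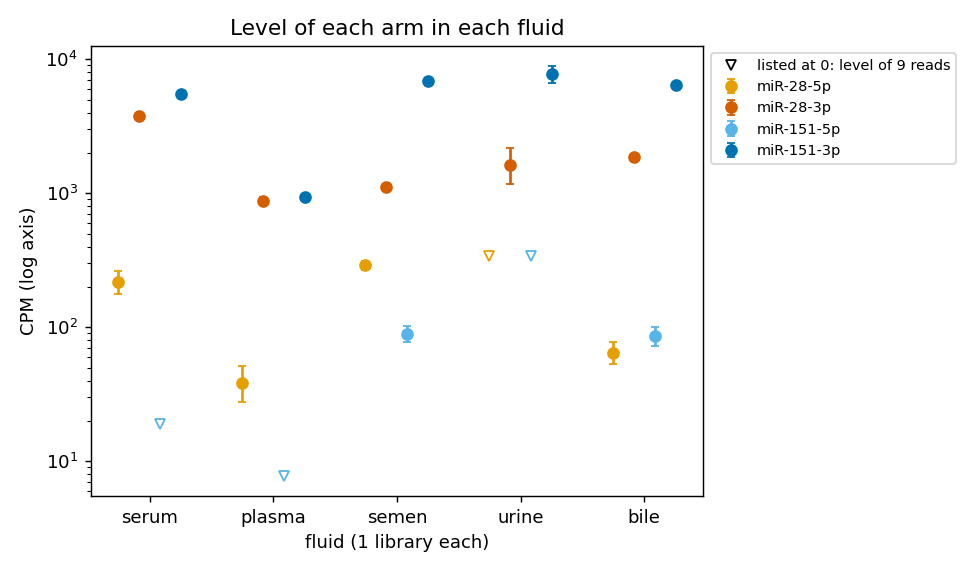
CPM of the 4 arms (log axis) in each fluid, 1 library each; bars are Clopper-Pearson 95% intervals for counting error, and open triangles mark an arm listed at 0, drawn at the level of 9 reads. miR-151-3p sits between 5554 and 7729 CPM in 4 fluids and at 937 CPM in plasma, beside miR-28-3p at 882 CPM.

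A ratio taken within a library needs no scaling between libraries, so the miR-151 to miR-28 ratio was compared next. Plasma carried about as many reads of one hairpin as of the other, serum somewhat more of miR-151, and the remaining fluids several times more of miR-151. With both arms summed, the ratio was 1.38 in serum (1.30 to 1.46) and 1.02 in plasma (0.934 to 1.11), against 3.40 in bile (3.27 to 3.54), 4.77 in urine (3.42 to 6.79) and 4.95 in semen (4.76 to 5.14). The intervals of serum and plasma lie below those of the other 3 fluids. The urine interval covers the semen value and its lower end reaches into the bile interval, so urine is not placed between them. Reads of different sequence are ligated and amplified with unequal efficiency, so a ratio of 1 is a ratio of reads and not of molecules.

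The same held for the 3p arms alone, which avoids the related 5p sequences. miR-151-3p over miR-28-3p was 6.16 in semen (5.91 to 6.43), 4.77 in urine and 3.47 in bile (3.33 to 3.61), and 1.46 in serum and 1.06 in plasma. Between fluids this ratio was 5.80 times higher in semen than in plasma (5.27 to 6.39), 4.22 times higher in semen than in serum (3.92 to 4.55) and 2.38 times higher in bile than in serum (2.21 to 2.56). It was also 1.77 times higher in semen than in bile (1.67 to 1.88). Serum and plasma, although they share a source, differed by 1.37 times (1.24 to 1.53). Serum and plasma had the 2 lowest ratios. Serum also had the largest erythrocyte share (10.21%), but the plasma share (0.583%) lay near those of urine (0.468%) and bile (0.417%), with 0.000525% for semen. The platelet set (2 of its 3 names available) took 0.454% of serum counts. Its plasma share, 0.0205%, was below that of semen (0.0372%), urine (0.0528%, 14 counts) and bile (0.0577%). For the lymphocyte set (miR-150, miR-342 and both arms of miR-142) serum had 1.001% and plasma 0.0262%. The lymphocyte set was at 0.0205% in bile, 0.000569% in semen and listed at 0 in urine. Unlike the ratio, these marker shares depend on the total they are divided by. With miR-378, miR-320 and miR-423-5p out of the totals, the 4 arms rose in plasma from 1857 to 11534 per 1000000. The marker sets were not rescaled, so the place of plasma among these shares is uncertain. The part of blood cell RNA in the ratio was not tested.

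**Figure D2:**
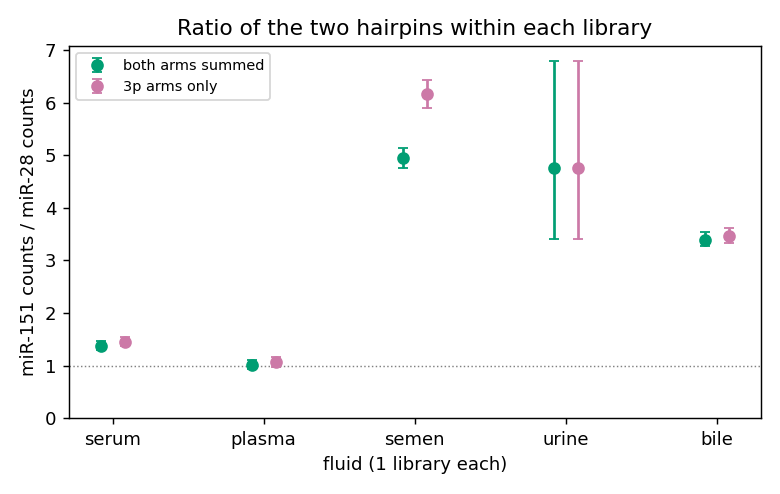
Counts of miR-151 divided by counts of miR-28 in each library, with both arms summed or the 3p arms only; bars are exact conditional binomial 95% intervals, and the dotted line marks equal counts. Serum (1.38) and plasma (1.02) sit near the line, and bile, urine and semen between 3.40 and 6.16.

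Arm use of the miR-28 hairpin stood apart in semen. There the 5p arm held 20.7% of the counts of both arms (19.3 to 22.2), against 5.41% in serum (4.43 to 6.52), 4.14% in plasma (3.03 to 5.52) and 3.35% in bile (2.76 to 4.03). The 5p to 3p ratio was thus 7.53 times higher in semen than in bile (6.09 to 9.38), 6.04 times higher than in plasma (4.41 to 8.47) and 4.57 times higher than in serum (3.67 to 5.73). Serum and plasma did not differ beyond counting error (1.32 times, 0.912 to 1.94), and serum was above bile by 1.65 times (1.24 to 2.19). The 3p arm was the major one in all 4 fluids. In urine, with 43 counts of the 3p arm, a 5p arm of 9 reads would be 17.3% of the pair, so a share near that of semen could not be told from one near that of bile.

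The 2 arms went in opposite directions. Between semen and bile, miR-28-5p was 4.50 times higher in semen (3.67 to 5.57) while miR-28-3p was 1.67 times higher in bile (1.59 to 1.76). These directions held under all 5 other scalings tried, in which log2 semen over bile ran from 2.05 to 2.70 for the 5p arm and from -0.87 to -0.22 for the 3p arm. The male germ cell names miR-34c and miR-202-5p were listed in semen alone, at 0.0269% of its counts together with miR-202-3p; their part in the arm share was not tested.

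The miR-151 hairpin was almost wholly represented by its 3p arm. The 5p arm held 1.29% in semen (1.12 to 1.47) and 1.31% in bile (1.10 to 1.54), and the ratio of the arms did not differ between them beyond counting error (semen over bile 0.985 times, 0.790 to 1.23). In serum, 9 reads of the 5p arm would be 0.341% (0.156 to 0.647), below the intervals of semen and bile; at the arm ratio of semen, 34.2 counts would have been listed there. In plasma 9 reads would be 0.826% (0.378 to 1.56), which overlaps them, with 14.1 counts at the ratio of semen. In urine that number would be 2.67, under the smallest listed count, so no difference could be seen.

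Of 78 hairpins with both arms named, 44 had at least 50 counts in 2 or more fluids. The 5p share moved by 20 percentage points or more between fluids in 29.5% of these, and neither miR-28, with a range of 17.4 points, nor miR-151, with 1.31 points, was among them. With a minimum of 20 counts in place of 50, under which urine enters with its 5p arm at 0 of 43 counts, miR-28 did pass 20 points, among 19 of 53 hairpins. At 10 points or more, a limit added after the values were seen, 47.7% passed, miR-28 among them. The median range was 6.39 points, 14 hairpins moved more than miR-28 and 32 more than miR-151. A change of the preferred arm was seen in 18.2% of hairpins and in neither of these. A range of several points was thus common among hairpins.

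**Figure D3:**
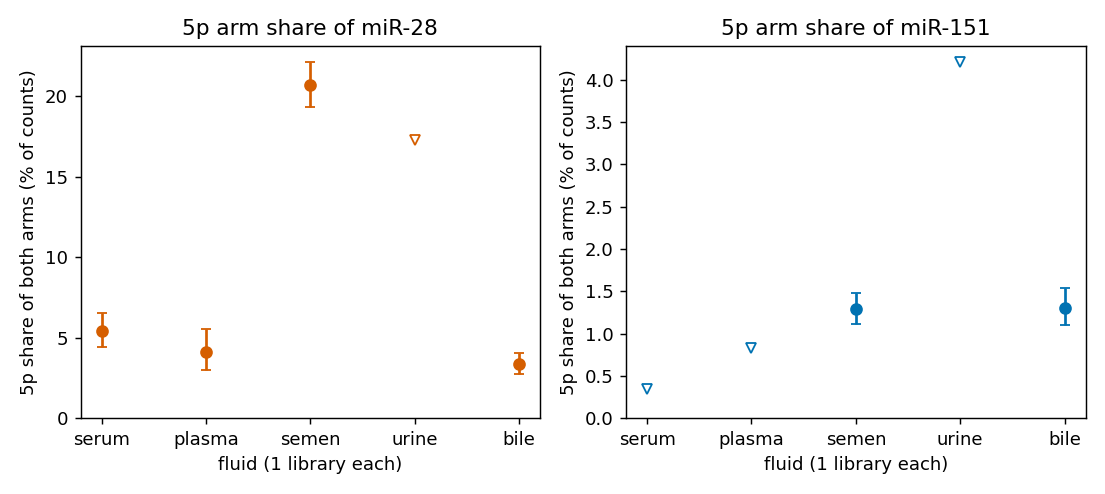
5p share of the counts of both arms for miR-28 (left) and miR-151 (right) in each fluid, on separate linear axes; bars are Clopper-Pearson 95% intervals, and open triangles mark a 5p arm listed at 0, drawn as if it had 9 reads. For miR-28 semen is at 20.7% and serum, plasma and bile are between 3.35% and 5.41%; miR-151 is near 1.3% in semen and bile.

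Pairs of fluids were compared over names with at least 100 counts in either, with a CPM ratio of 2-fold as the limit. A name listed at 0 was set to the smallest listed count, 10, and never called higher in that fluid. Shares of all names are given on CPM only. Counts of arms under other scalings have no such share beside them and do not single out these arms. Between serum and plasma 3 of 3 arms tested were higher in serum, where 73.1% of all names were (20.2% were higher in plasma): miR-151-3p by 5.93 times (5.52 to 6.37), miR-28-5p by 5.71 times (3.97 to 8.32) and miR-28-3p by 4.32 times (3.99 to 4.67). Their median log2 ratio was 2.51, beside 2.77 over the 109 names above 0 in both. The arms thus moved about as the typical name did, and the shift turned with the scaling. miR-378, miR-320 and miR-423-5p dominate the plasma library, miR-378 alone with 41.4%, and with these 3 left out of every total miR-151-3p was at 5777 in serum and 5818 in plasma, per 1000000 counts. With TMM all 3 arms were higher in plasma, miR-28-3p by 1.19 on the log2 scale, where its log2 serum over plasma was -1.19. On the authors' RPM and with DESeq2 size factors 0 of 3 passed 2-fold.

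Against semen, 3 of 4 arms were lower in plasma. Of all names 55.3% were higher in semen and 33.3% in plasma. miR-151-3p was 7.31 times (6.87 to 7.78) and miR-28-5p 7.62 times (5.61 to 10.6) higher in semen, and miR-151-5p at least 10.3 times (lower end of its interval 5.49). miR-28-3p was 1.26 times higher in semen (1.17 to 1.36). Against bile 3 of 4 were higher in bile, as were 60.3% of names (28.4% were higher in plasma): miR-151-3p by 6.89 times (6.47 to 7.34), miR-28-3p by 2.11 times (1.96 to 2.27) and miR-151-5p by at least 9.86 times (lower end 5.21). Against urine, miR-151-3p was 8.25 times higher in urine (7.07 to 9.59), as were 41.8% of names by 2-fold (23.1% were higher in plasma), and miR-28-3p was 1.84 times higher (1.32 to 2.49), short of the limit. Calls in these pairs turned with the scaling. With TMM, and with totals without miR-378, miR-320 and miR-423-5p, 1 arm (miR-28-3p) was past 2-fold between plasma and semen, and it was higher in plasma. Under the same 2 scalings 2 arms were higher in plasma than in bile and 0 in bile: log2 plasma over bile was 1.62 and 1.87 for miR-28-5p and 1.30 and 1.55 for miR-28-3p. Against urine 1 arm was higher in plasma under both. miR-151-5p stayed higher in semen and in bile than in plasma under all 5 other scalings. Its log2 plasma over semen was -0.73 or lower and its log2 plasma over bile -0.67 or lower. With TMM, and without miR-378, miR-320 and miR-423-5p in the totals, it fell short of 2-fold in both pairs.

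Among the other 4 fluids 0 to 3 arms passed 2-fold in a pair. In serum against semen miR-28-3p was 3.42 times higher in serum (3.22 to 3.64), where 51.1% of names were higher, and miR-151-5p at least 4.22 times higher in semen (lower end 2.25), where 25.5% were. The call of miR-28-3p was lost with TMM (log2 serum over semen 0.97), DESeq2 size factors (0.62) and totals without the most abundant miRNA (0.98), and under each of these 0 arms were higher in serum and 3 in semen. In serum against bile, miR-28-3p was 2.05 times (lower end 1.93) and miR-28-5p 3.37 times (2.55 to 4.46) higher in serum, with 53.6% of names, and miR-151-5p at least 4.04 times higher in bile (lower end 2.14), with 28.3%. Both serum calls were lost with TMM, at a log2 serum over bile of 0.82 for miR-28-5p and 0.10 for miR-28-3p, and with DESeq2 size factors, at 0.64 and -0.084; under these and on the authors' RPM 0 arms were higher in serum and 2 in bile. On the authors' RPM miR-28-3p was higher in semen and in bile than in serum. In serum against urine, miR-28-3p was 2.35 times higher in serum (1.74 to 3.26), with 38.1% of names, while 13.3% were higher in urine. Between semen and bile only miR-28-5p passed, higher in semen with 33.3% of names, while 37.7% were higher in bile. In the pairs of urine with semen and with bile the 5p arms could not pass in either direction, since 10 urine counts stand for 377 CPM, above their levels in those fluids. Of the 2 arms that could, 0 passed between semen and urine, with 6.96% of names higher in semen and 27.8% in urine, and 0 between urine and bile, with 26.1% higher in urine and 11.3% in bile. miR-151-3p passed 2-fold in none of these 6 pairs on CPM, but did so in some under other scalings, for example between serum and semen with TMM (-1.11 on the log2 scale of serum over semen) and with DESeq2 size factors (-1.46).

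**Figure D4:**
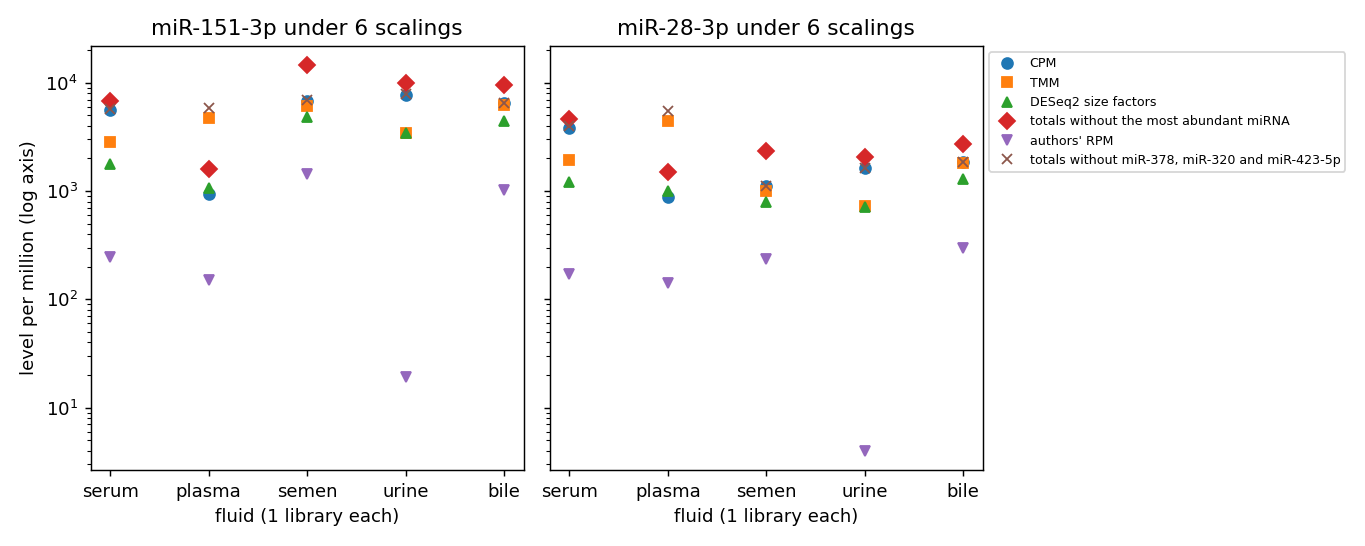
Level per 1000000 (log axis) of miR-151-3p (left) and miR-28-3p (right) in each fluid under 6 ways of scaling the libraries. miR-151-3p in plasma lies at 937 with CPM and at 5818 with totals without miR-378, miR-320 and miR-423-5p; on the authors' RPM urine falls to 19.0 for miR-151-3p and 3.98 for miR-28-3p.

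The names nearest in pattern were found by the root mean square difference of log2 CPM, centred on the mean over fluids, a measure that does not change with the scaling of the libraries. For miR-151-3p, over all 5 fluids and 66 other names, they were miR-99a (0.40), miR-29a (0.40) and miR-101 (0.58), against a median of 1.47. miR-99a had 49466 CPM in semen, 48892 in serum, 40947 in urine, 25352 in bile and 5930 in plasma. For miR-28-3p they were miR-152 (0.54), miR-7134-3p (0.63) and miR-27a (0.64), with a median of 1.74. For miR-28-5p, over the 4 fluids that list it and 103 other names, they were miR-99a (0.52), miR-345-3p (0.54) and miR-186 (0.55). miR-151-5p was listed in too few fluids. The family members were not each other's nearest names. miR-28-3p stood 15th in the order from miR-151-3p (0.98), and miR-151-3p stood 9th in the order from miR-28-3p. In the order from miR-28-5p (median 1.76), miR-151-3p stood 14th (0.88) and miR-28-3p, the other arm of its own hairpin, 20th (1.14). Each of these differences lay below the median of its order, so the members were nearer than the typical name.

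A list of 8 other miRNAs taken as LINE-2 derived or as sharing the miR-28-5p seed, the bases that pair with targets, has 14 arms named in the tables, and 8 of them were listed above 0 in at least 1 fluid: 8 in semen, 5 in serum, 5 in bile, 3 in urine and 1 in plasma. miR-708-5p, the close relative of miR-28-5p, had 20 counts in semen and was listed at 0 elsewhere, and miR-708-3p had 10 counts in semen and 17 in bile. miR-325 and both arms of miR-493 and miR-545 were at 0 throughout. The 3 arms with enough counts to be compared were miR-374a-5p, miR-374a-3p and miR-374b-5p. They were compared on CPM only, and calls of the miR-28 and miR-151 arms against plasma turned with the scaling. Whether those of the miR-374 arms hold under other scalings was not tested. Against plasma 3 of 3 miR-374 arms were higher in semen (55.3% of all names) and 3 of 3 in bile (60.3%). All 3 had their highest CPM in urine, from 11 to 19 counts. The smallest listed count, 10, already stands for 377 CPM in urine, above every level of miR-374b-5p in the other fluids. The place of urine in the order of these arms is therefore uncertain. miR-374a-5p stood at 716 CPM in urine, 411 CPM in bile, 408 CPM in semen and 38.0 CPM in serum. miR-374a-3p stood at 528 CPM in urine, 452 CPM in semen, 78.3 CPM in bile and 42.3 CPM in serum. miR-374b-5p, the only arm of the list found in plasma, was at 16.5 CPM there, 97.2 CPM in serum, 154 CPM in semen, 251 CPM in bile and 415 CPM in urine. Against serum 2 of 3 were higher in semen (25.5% of names) and 2 of 3 in bile (28.3%). The levels of these 3 arms where listed, at 16.5 to 716 CPM, lay below those of miR-151-3p in each fluid. miR-95 was highest in bile, with 82 counts, beside 10 in serum and 10 in semen.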

How the data were processed

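The authors deposited, for each of 5 fluids with 1 library each, a table of 411 names with raw read counts and a normalized value. The submitters' processing notes name bcl2fastq 2.17 and the build Sscrofa10.2, and no source used here names the aligner or the miRNA annotation. The normalized values deposited by the authors fit RPM: counts divided by them give 1 constant per library to within 0.1%. No count between 1 and 9 occurs. Shares, CPM, ratios and exact 95% intervals were computed with scipy 1.17.1. With 1 library per fluid no test was made. Names in a pair of fluids were compared at 100 or more counts and 2-fold, with a floor of 10 counts; arm pairs at 50 or more counts and 20 points. Named were the 4 arms, the LINE-2 list, the 3 nearest names per arm and marker names; other names were chosen after their values were seen. Members and lists were chosen with earlier results of these data known. Alternatives were edgeR 4.0.16 TMM, DESeq2 1.42.0 size factors, other totals, minimum counts, floors and limits. The RefSeq table is of another build (Sscrofa11.1) and served only to see which genes contain MIR28 and MIR151; no coordinates are printed.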

Additional observations from a re-analysis of the deposited data

How the results depend on the processing

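Counts of arms past 2-fold moved with the scaling. The share of all names past 2-fold is given on CPM only, so the counts under other scalings do not single out these arms. Between serum and plasma 3 arms became 1 with TMM and 0 with DESeq2 size factors, on the authors' RPM and with totals without miR-378, miR-320 and miR-423-5p (added after the data were seen). The log2 serum over plasma turned with TMM and without those 3 miRNAs to -0.79 and -0.065 for miR-28-5p, -1.19 and -0.47 for miR-28-3p, and -0.74 and -0.010 for miR-151-3p. Between plasma and semen 3 arms became 1 under the same 2 settings. For miR-28-3p, log2 plasma over bile turned to 1.30 and 1.55, and for miR-151-3p, log2 plasma over urine to 0.44 with TMM and 2.98 on RPM. On RPM, log2 serum over semen was -0.47 for miR-28-3p, log2 serum over bile -0.074 for miR-28-5p and -0.79 for miR-28-3p, and the last was -0.084 with DESeq2 size factors. RPM also gave 3 arms in place of 1 between serum and urine, 2 in place of 1 between plasma and urine, and 4 in place of 0 between semen and urine and between urine and bile. All of these RPM calls were lower in urine, whereas the 1 CPM call between plasma and urine was higher in urine. Serum and urine had 0 with DESeq2 size factors, urine and bile 1 with TMM, and semen and urine 1 with a floor of 3. A limit of 4-fold left 1 in serum and semen, 1 in serum and bile and 0 in serum and urine. Without the most abundant miRNA in the total, the summed share was 1.77% in semen, 1.25% in bile, 1.20% in urine, 1.17% in serum and 0.317% in plasma. The hairpins past 20 points, 13, were 19 at 20 counts, with miR-28 among them, 7 at 200 counts and 21 at 10 points. The miR-151 to miR-28 ratio of semen was 6.16 on the 3p arms. RPM differs from CPM only in the total it divides by, of which listed miRNAs made up 0.246% in urine and 4.47% to 21.2% elsewhere. What lies behind the differences between the scalings was not tested. Of 180 values of single arms under other scalings, 135 kept their direction and 45 did not, 26 of these without plasma in the pair. These counts include ratios of 5p arms listed at 0 in urine, where the urine 0 was set to 10 counts. That floor sets the direction of such ratios on CPM, so for them a kept or changed direction says nothing about the arm. The 3 nearest names of each arm were the same with TMM and RPM, by construction of the measure. No paired analysis was possible because each fluid has 1 library.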
